A study of Homo sapiens with 6 samples.

Results

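The genes described here encode nuclear receptors, the transcription factors through which steroid and thyroid hormones, vitamin D, retinoids, fatty acids, oxysterols and bile acids act on genes. They were chosen by gene symbol from the protein-coding genes on chromosomes 1 to 22, with NR2F1 and NR2F2 left out, which gave 39 of 19126 genes. The symbols searched for also did not take in the retinoic acid receptor (RAR) and HNF4 genes, so the 39 are not the whole family. Islands, meaning stretches called as enriched for a histone mark, were read within the span of each gene and 5 kb on each side. The rule itself used no measured value, although it was set with earlier results of these data known.

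The study used ChIP-seq, in which chromatin bearing a histone mark is pulled down and sequenced, on endothelial cells made from H1, an established line of human embryonic stem cells. All samples are labelled GATA2+, after a transcription factor needed for blood formation, and were derived in a condition labelled Vc- or a condition labelled Vc+. The series title speaks of vitamin C and of demethylation by KDM6 enzymes, which remove H3K27me3. Both conditions share the H1 line, the endothelial derivation and the GATA2+ label, although the design text also mentions GATA2-negative cells. Of 6 samples, 4 had an island list, namely H3K27me3 and H3K4me3 in each condition, and the 2 inputs were not used. With 1 library for each mark in each condition, differences between conditions have no replicate check and none was tested. All 4 file names disagree with the sample labels on the condition. The Vc- library and the Vc+ library below are those so labelled, and if the file names hold instead, each direction below is reversed.

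A nuclear receptor has a zinc finger domain that binds DNA, often at sites built on the hexamer AGGTCA, and a domain that binds a ligand or, in orphan receptors, has no established natural one. Without ligand many receptors hold corepressors with histone deacetylases, and with ligand they recruit coactivators. H3K4me3 marks active and poised promoters. H3K27me3 is laid down by Polycomb repressive complex 2, and the presence of both at a promoter is called bivalent and is common at developmental genes. Steroid and oxysterol receptors, PPARs and the NR4A receptors are well known in endothelium for their part in inflammation, lipid handling and vessel growth.

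On chromosomes 1 to 22 the H3K27me3 lists held 8893 islands in the Vc- library and 9534 in the Vc+ library, covering 40.2 and 51.1 Mb. The H3K4me3 lists held 21583 and 21311 islands covering 42 and 46.8 Mb. Read depth is unknown from these lists. H3K4me3 was called in both conditions at all 8 endothelial markers looked at, among them PECAM1, CDH5, KDR and TEK. Over all genes 77.8% had it in both libraries, so such calls alone say little about cell type. It was called at 1 of 6 blood markers, ITGA2B, and in neither library at PTPRC, SPN and CD48. It was also called in both libraries at 3 of 5 mesenchymal and mural markers and at all 3 epithelial markers. Of the 4 pluripotency markers found in the gene table, 2, DPPA4 and LIN28A, had it in both. POU5F1 had it in the Vc+ library alone, over 0.264 kb of its window, and NANOG had none. H3K27me3 was called in both at the endothelial marker ESAM, the blood marker ITGA2B (6.8 and 3 kb) and the epithelial markers EPCAM and CDH1, and in the Vc+ library alone at CDH5 (1.6 kb). The part of other cells in the calls below was not tested. A list from bulk cells cannot tell a mark on all cells from one on some of them, or 2 marks on the same cells from marks on different cells.

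H3K27me3 was called at 19 of the 39 nuclear receptor genes in the Vc- library, where it was called at 22% of all protein-coding genes. In the Vc+ library it was called at 21, against 24.2% of all genes. The same 19 genes were called in both libraries, PPARD and RORA had an island in Vc+ only, none (0) had one in Vc- only, and 18 genes had none in either. Over all genes 19.9% had the mark in both libraries, 4.36% in Vc+ only, 2.13% in Vc- only and 73.6% in neither. For H3K4me3, 35 of the 39 genes were called in the Vc- library (78.7% of all genes) and 38 in the Vc+ library (78.8%). The mark was in both libraries at 35 genes, against 77.8% of all genes. In Vc+ only it was called at 3 members, including NR1H4 and NR2E3, and at 1.04% of all genes. With a score of at least 10 these calls fell to 0, and within 1 kb of a listed start there were also 0 among the 34 members with one. NR0B2 had the mark in neither library, as did 20.3% of all genes. No member (0) had it in Vc- only, where 0.894% of all genes did.

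**Figure D1:**
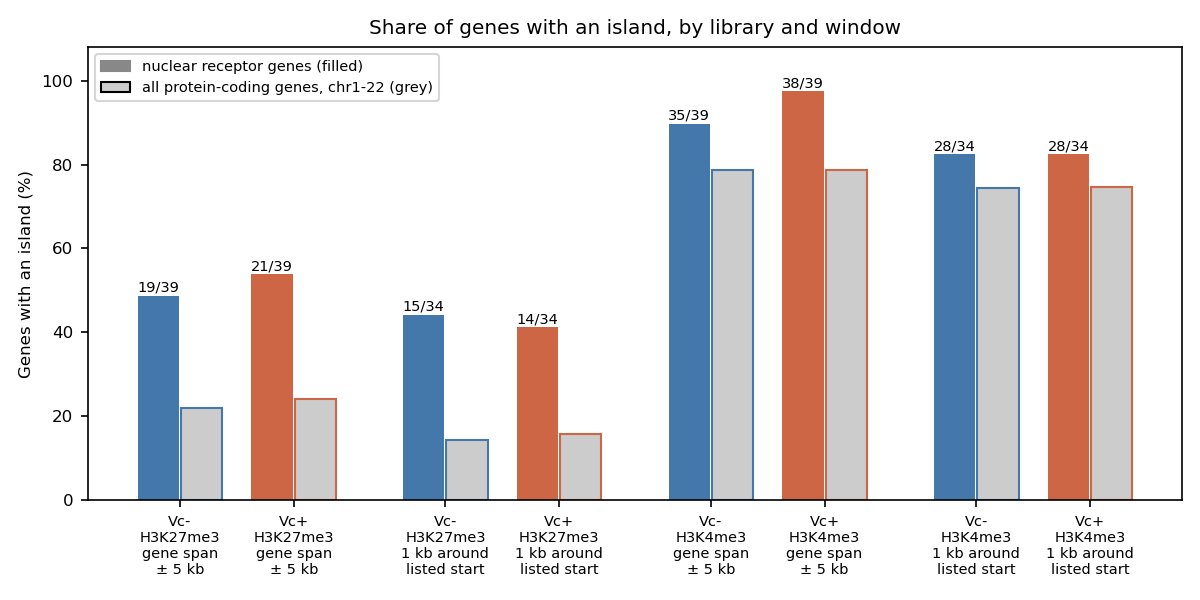
Share of genes with an island (%), for the nuclear receptor genes (filled bars, with the number called of the number read) and all protein-coding genes on chromosomes 1 to 22 (grey bars), by library and by window. H3K27me3 stood at 19 of 39 and 21 of 39 nuclear receptor genes against 22% and 24.2% of all genes, with 1 library per bar and no error to show.

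The window grows with the gene, and the median span of the 39 genes was 53.4 kb against 24.5 kb over all genes. Among genes of over 100 kb, 11 of 15 nuclear receptor genes had H3K27me3 in both libraries, and 31.9% of all such genes did. Among genes of up to 100 kb the numbers were 8 of 24 and 17.5%. Within 1 kb of a transcription start listed by RefSeq, H3K27me3 was called at 15 of the 34 members with a listed start in the Vc- library and at 14 in the Vc+ library, against 14.3% and 15.7% of all genes, and at 14 in both, against 13.1%. H3K4me3 was called there at 28 of 34 in each library and in both, against 74.3%, 74.7% and 73.6% of all genes.

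All 19 genes with H3K27me3 in both libraries also had H3K4me3 in both, as did 93.2% of all genes with H3K27me3 in both, so that 19 members had both marks in the Vc- pair of libraries and, with PPARD and RORA, 21 in the Vc+ pair, against 20.4% and 22.5% of all genes. A further 14 members had H3K4me3 in both with no H3K27me3 in either, against 53.9% of all genes. At 18 of the 19 the islands of the marks overlapped in both conditions, and the exception was NR6A1. Over all genes with H3K27me3 in both libraries 80.3% had such an overlap, and over all genes 16% did. The median overlap at the 18 members was 2.3 kb in the Vc- pair and 3 kb in the Vc+ pair, against 1.6 and 1.8 kb over all genes with an overlap in both. Among the 18, the overlap at ESRRA was 0.077 and 0.877 kb and lay outside the gene. At PPARD the marks of the Vc+ pair did not overlap. Calls differed within families of closely related receptors. In 4 of them (NR3C, NR4A, THR and RXR) at least 1 gene had H3K4me3 in both libraries with no H3K27me3 in either, while another had both marks in both.

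Promoter sequences, 250 bases before to 50 bases after each start, were taken from RefSeq (GRCh38 patch 14) for 34 of the 39 genes, with 81 starts. Members without such an entry include NR4A2, VDR, NR2F6 and NR0B2. The 250 bases before 6 of these starts are shown. The starts of ESR2, and those of THRA and THRB, contrast 1 gene, or like receptors, under different marks. Beside them are a PPARG start under both marks and an NR1I2 start under neither, which are not such a pair. Capitals mark each CpG and each AGGTCA on the strand printed, 5′ to 3′.
ESR2 upstream start, minus strand, chr14:64338614-64338863, H3K4me3 only: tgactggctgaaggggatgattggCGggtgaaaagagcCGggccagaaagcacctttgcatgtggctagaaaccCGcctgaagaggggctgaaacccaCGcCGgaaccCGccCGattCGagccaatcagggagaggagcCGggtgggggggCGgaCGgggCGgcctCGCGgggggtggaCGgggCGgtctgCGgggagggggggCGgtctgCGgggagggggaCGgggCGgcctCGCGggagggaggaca
ESR2 internal start, minus strand, chr14:64294411-64294660, both marks: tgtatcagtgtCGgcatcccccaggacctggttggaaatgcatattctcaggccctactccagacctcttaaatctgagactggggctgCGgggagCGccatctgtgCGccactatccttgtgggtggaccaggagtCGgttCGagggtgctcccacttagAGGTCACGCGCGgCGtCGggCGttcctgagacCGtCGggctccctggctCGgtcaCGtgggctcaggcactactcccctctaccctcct
THRA start, plus strand, chr17:40062715-40062964, H3K4me3 only: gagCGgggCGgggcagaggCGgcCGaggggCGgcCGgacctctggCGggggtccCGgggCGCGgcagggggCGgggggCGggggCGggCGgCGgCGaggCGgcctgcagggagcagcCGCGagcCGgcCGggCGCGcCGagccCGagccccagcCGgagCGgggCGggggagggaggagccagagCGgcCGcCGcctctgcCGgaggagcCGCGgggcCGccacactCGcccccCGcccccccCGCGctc
THRB first start, minus strand, chr3:24495709-24495958, both marks: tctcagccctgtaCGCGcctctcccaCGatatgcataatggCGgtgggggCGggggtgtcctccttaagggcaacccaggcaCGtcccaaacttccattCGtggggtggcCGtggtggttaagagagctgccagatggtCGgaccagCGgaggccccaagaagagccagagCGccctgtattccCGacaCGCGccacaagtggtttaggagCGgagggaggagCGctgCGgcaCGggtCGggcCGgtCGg
PPARG first start, plus strand, chr3:12287118-12287367, both marks: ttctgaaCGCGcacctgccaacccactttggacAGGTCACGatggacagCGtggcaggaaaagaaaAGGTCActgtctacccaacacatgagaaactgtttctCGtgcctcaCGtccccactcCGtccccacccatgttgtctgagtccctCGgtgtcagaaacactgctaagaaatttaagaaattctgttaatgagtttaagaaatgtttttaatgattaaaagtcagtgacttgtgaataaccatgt
NR1I2 second start, plus strand, chr3:119782460-119782709, no mark: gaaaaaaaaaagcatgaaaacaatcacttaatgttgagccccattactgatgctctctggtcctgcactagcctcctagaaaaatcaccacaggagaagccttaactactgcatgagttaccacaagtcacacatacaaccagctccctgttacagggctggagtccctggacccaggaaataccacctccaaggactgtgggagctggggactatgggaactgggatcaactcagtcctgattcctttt

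These 250 bases held 39 CpG at THRA and 21 at THRB, 23 and 16 at the upstream and internal ESR2 starts, 8 at the first PPARG start and none (0) at the second NR1I2 start. The ratio of observed to expected CpG, given the numbers of C and G, was 0.84 at THRA, 0.8 at THRB, 0.83 and 0.67 at ESR2 and 0.64 at PPARG. Over whole windows of 300 bases, 20 starts of 12 members lay under islands of both marks in both conditions, and their median ratio was 0.7 (range 0.35 to 0.99), against 0.81 over the 1638 such starts of all genes. A further 27 starts of 15 members lay under H3K4me3 alone in both conditions, with a median of 0.87 against 0.85 over all genes. The 23 starts of 14 members under neither mark had a median of 0.24, against 0.23. The unmarked start of highest ratio, 1.25, was the first of RXRA, which lay between H3K4me3 islands that ended 0.255 kb before it and began 0.346 kb after it in both libraries. One start (1) of ESR1 lay under H3K27me3 only, and 10 starts differed between libraries. Starts of 1 gene often share bases, so these are descriptions of windows and not of independent sites.

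**Figure D2:**
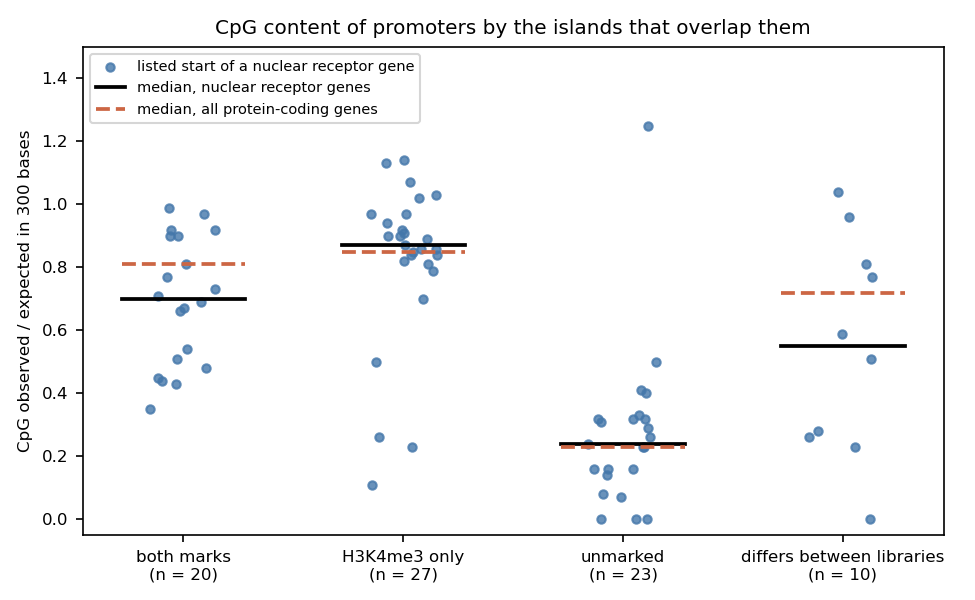
Observed over expected CpG in the 300 bases around each listed start, by the islands that overlap those bases in both conditions. Points are starts of nuclear receptor genes, black lines their medians (0.7, 0.87, 0.24 and 0.55 from left to right) and dashed lines the medians over all protein-coding genes (0.81, 0.85, 0.23 and 0.72). The 1 start under H3K27me3 only is not drawn.

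The hexamer AGGTCA was looked for on both strands of the windows of 300 bases. It was present in 7 of the 20 starts under both marks (35%), against 8.73% of such starts of all genes and 11.9% of all starts. These 7 starts belong to 4 genes, ESR2, NR2E1, PPARG and RXRG, and the overlapping windows of ESR2, and of the second and the third PPARG starts, hold the same match. Of the 27 starts under H3K4me3 only, 1 held it (3.7%, against 9.05% of all genes' starts of that class), at NR1H3. Among the 23 unmarked starts 4 held it (17.4% against 18.8%), and over all 81 starts of the members 13 did (16% against 11.9%). The first PPARG window has AGGTCA at 217 and at 184 bases before the start, as shown above in capitals. The cyclic AMP response element TGACGTCA, which reads the same on both strands and does not overlap AGGTCA, was present in 2 of 81 windows (2.47%), at NR2E1 and NR6A1, and in 2.31% of all windows.

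**Figure D3:**
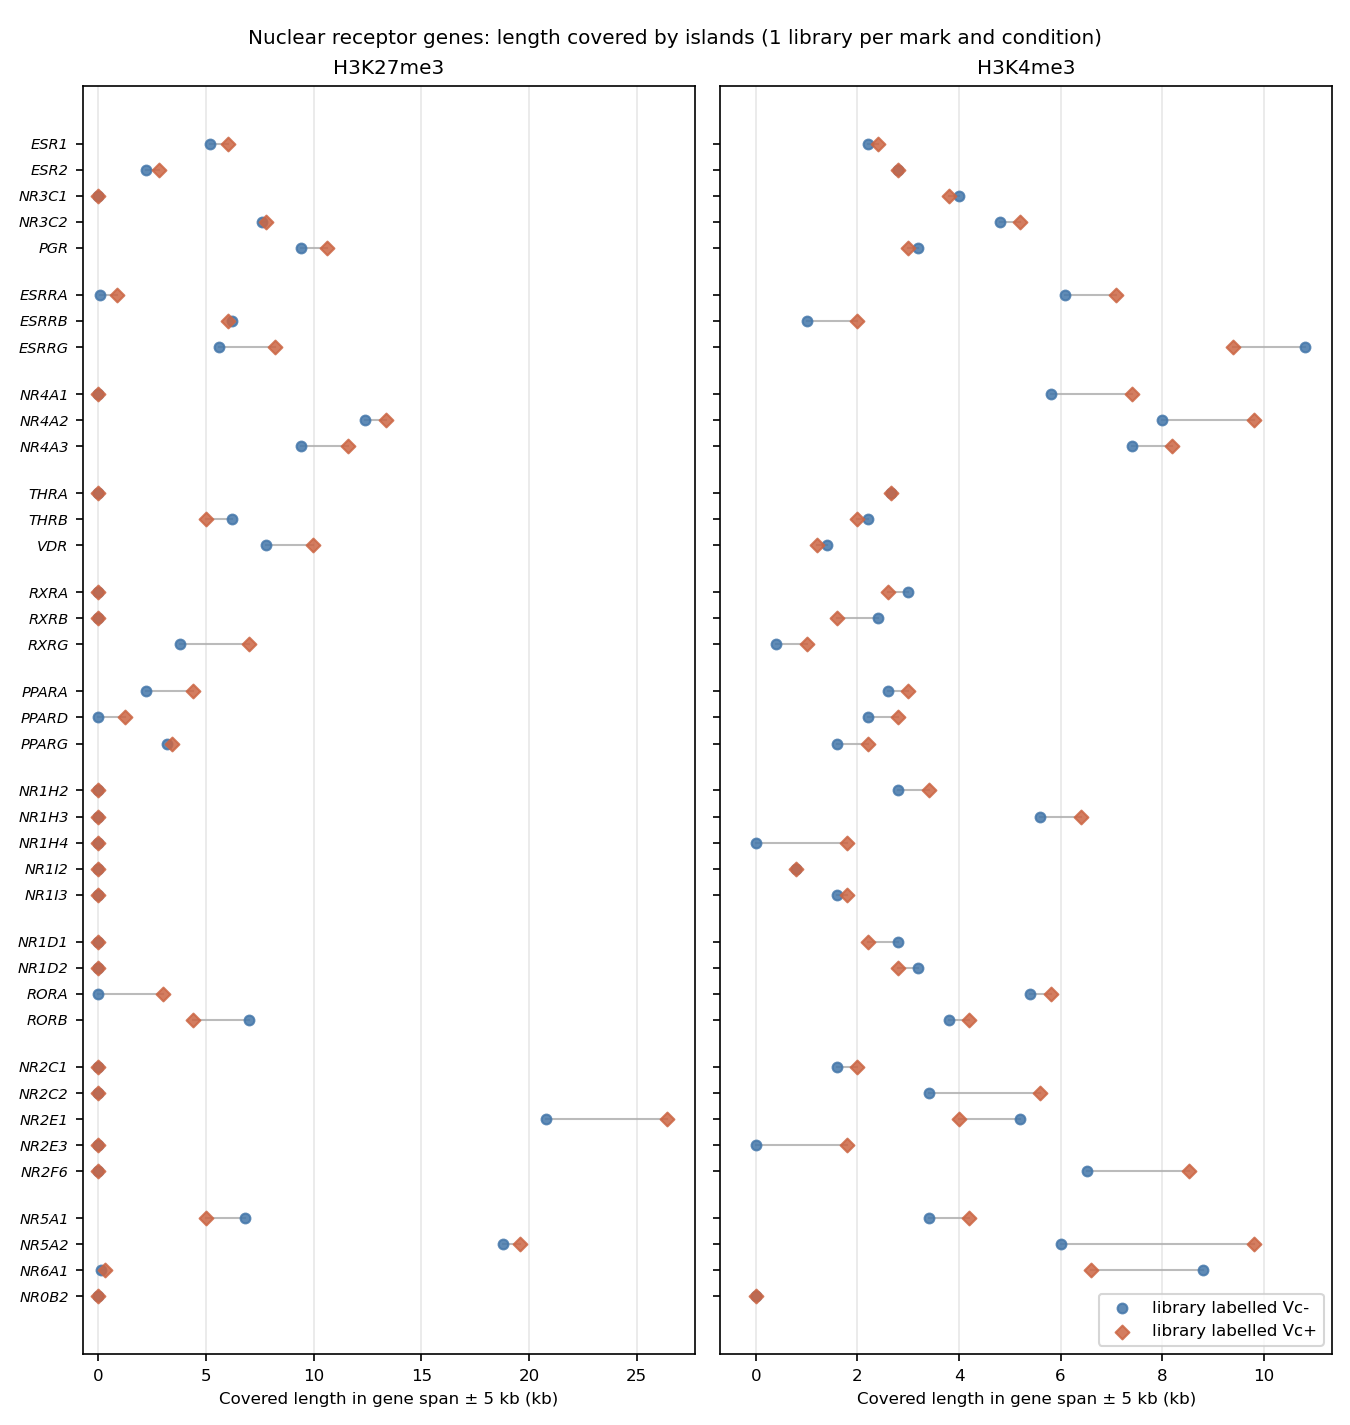
Length covered by islands (kb) within the span of 38 of the 39 nuclear receptor genes and 5 kb on each side, for H3K27me3 (left) and H3K4me3 (right). Circles are the Vc- library and diamonds the Vc+ library, with 1 library each, and genes are grouped by role. NR2E1 and NR5A2 have the longest H3K27me3, at 20.8 and 26.4 kb and at 18.8 and 19.6 kb.

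Steroid receptors bind cortisol, aldosterone, estrogens or progesterone. ESR1 (NCBI gene 2099, chromosome 6, 151656672 to 152129619), the estrogen receptor alpha, had 1 H3K27me3 island of 5.2 kb in the Vc- library and of 6 kb in the Vc+ library, inside the gene. Of its 6 listed starts, 2 had neither mark, 1 had both in both conditions, and H3K4me3 at the bivalent start was 1.4 kb wide in each library. ESR2, the estrogen receptor beta, had H3K27me3 over 2.2 and 2.8 kb at its internal starts, where H3K4me3 was 1.2 and 1 kb wide. The starts at the upstream end of ESR2 had only H3K4me3, over 1.6 and 1.8 kb. The last listed start of ESR2, whose window also holds AGGTCA, had neither mark.

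PGR, the progesterone receptor (chromosome 11, 101029624 to 101129813), had H3K27me3 over 9.4 kb in the Vc- library and 10.6 kb in the Vc+ library, and H3K4me3 over 3.2 and 3 kb lay within it. NR3C2, the mineralocorticoid receptor, had 7.6 and 7.8 kb of H3K27me3 and 4.8 and 5.2 kb of H3K4me3, and 3 of its 4 starts were bivalent in both conditions. NR3C1, the glucocorticoid receptor, had no H3K27me3 in either library, with the nearest island 118 kb from the gene in the Vc- library and 505 kb in the other. A single H3K4me3 island of 4 and 3.8 kb covered 5 of its 7 starts. Its score was among the highest 3.78% of the Vc- list and 4.73% of the Vc+ list. Of the 5 steroid receptor genes, 4 thus had at least 1 start under both marks in both conditions, and NR3C1 was marked by H3K4me3 only.

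The estrogen-related receptors are orphan receptors, with ESRRA and ESRRG known for control of mitochondrial metabolism and ESRRB for its part in mouse pluripotency. ESRRB had H3K27me3 over 6.2 and 6 kb at the last of its 3 listed starts, and H3K4me3 over 1 kb in the Vc- library and 2 kb in the Vc+ library. ESRRG, which spans 634.5 kb, had H3K27me3 over 5.6 and 8.2 kb at its most upstream start. It also had the longest H3K4me3 of the 39 genes in the Vc- library, 10.8 kb in 5 islands, against 9.4 kb in 5 islands in the other. Of its 8 starts, 1 was bivalent, 4 had H3K4me3 only and 3 had neither mark, so the marks differed along 1 gene. ESRRA counts as called for H3K27me3 only because the window reached an island of 11.8 kb that lies over the KCNK4 start. The island overlapped the window by 0.077 and 0.877 kb. The start of ESRRA itself had H3K4me3 only, and islands of that mark covered 6.08 and 7.08 kb of the window, part of them at PRDX5 and TRMT112.

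The NR4A receptors are orphan receptors made quickly after many stimuli, including inflammatory signals and flow in vessels. NR4A2 (chromosome 2, 156324437 to 156332721), known for dopaminergic neurons, had a H3K27me3 island of 13 kb in the Vc- library (156318801 to 156331800) and 18.6 kb in the Vc+ library (156314201 to 156332800). The wider one covered the whole gene. Its 5 H3K4me3 islands in Vc- covered 8 kb and the 4 in Vc+ covered 9.8 kb, and 4.2 and 7 kb of this overlapped H3K27me3. NR4A3 had 9.4 and 11.6 kb of H3K27me3, beginning 0.916 kb inside the gene in the Vc- library and crossing the start in the Vc+ library. Its H3K4me3 island was 7.4 kb wide in both. NR4A1 had no H3K27me3 in the window of either library, and the nearest island was 18.5 kb from the gene in the Vc- library and 8.03 kb in the other. H3K4me3 covered 5.8 kb of NR4A1 in 4 islands and 7.4 kb in 5. The 3 NR4A genes were all among the 8 with the longest H3K4me3, whether or not H3K27me3 was present.

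THRA and THRB encode the thyroid hormone receptors and VDR the vitamin D receptor. THRB (chromosome 3, 24117153 to 24495708) had 6.2 kb of H3K27me3 in the Vc- library and 5 kb in the Vc+ library, over both listed starts, with H3K4me3 islands of 2.2 and 2 kb inside. THRA (chromosome 17, 40062193 to 40093867) had no H3K27me3 and the nearest island lay 192 and 191 kb away. Its start had H3K4me3 over 2.2 and 1.8 kb. THRA overlaps NR1D1, which is on the opposite strand, and the window of THRA also takes in part of an H3K4me3 island that lies over the NR1D1 start in the Vc- library and inside NR1D1, 1.19 kb from its start, in the Vc+ library. VDR had H3K27me3 over 7.8 and 9.99 kb across its upper-coordinate end and a narrow H3K4me3 island of 1.4 and 1.2 kb there.

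Retinoid X receptors are the shared partners with which many other nuclear receptors bind DNA as heterodimers. RXRA and RXRB had no H3K27me3, with the nearest islands 647 and 253 kb from RXRA and 771 and 420 kb from RXRB. H3K4me3 covered 3 and 2.6 kb at RXRA. At RXRB it covered 2.4 and 1.6 kb, in an island shared with the start of SLC39A7. RXRG, the member of narrower tissue range, had 3.8 kb of H3K27me3 in the Vc- library and 7 kb in the Vc+ library, and the shortest H3K4me3 of the genes with that mark in both conditions in the Vc- library, 0.4 kb, against 1 kb in the other.

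PPARs are fatty acid receptors. PPARA, a regulator of fatty acid oxidation, had 2.2 and 4.4 kb of H3K27me3, so the length in the Vc+ library was 2 times that in the other. In the Vc- library the island ended 0.126 kb before the gene, and in the Vc+ library it crossed the start. PPARG, the regulator of fat cell formation, had H3K27me3 over 3.2 and 3.4 kb and H3K4me3 over 1.6 and 2.2 kb at its first 3 starts. Its other 3 starts had neither mark. PPARD, the broadly expressed member, had H3K4me3 over 2.2 and 2.8 kb at its start. Its H3K27me3 call in the Vc+ library came from an island of 6.8 kb that ended 3.76 kb before the gene, with 1.24 kb inside the window, and the nearest island of the other library was 5.76 kb from the gene.

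None of the 5 receptors for oxysterols, bile acids and foreign compounds had H3K27me3 in either library, where 73.6% of all genes had none. NR1H2 and NR1H3, the liver X receptors that sense oxysterols, had H3K4me3 over 2.8 and 3.4 kb and over 5.6 and 6.4 kb. Part of this lay at neighbouring starts, of POLD1 at NR1H2 and of ACP2 and MADD at NR1H3. An island of 0.8 kb at the third and the fourth start of NR1H3 was called in the Vc+ library alone. NR1H4, the bile acid receptor, had a single H3K4me3 island, called in the Vc+ library alone, of 1.8 kb and a score of 7.17, at the far end of the gene and 60.8 kb from its listed start. NR1I2, which senses foreign compounds, had an island of 0.8 kb in each library 27.1 kb from the nearest listed start, and none at either listed start, which held 5 and 0 CpG in 300 bases. At NR1I3, a receptor of like role, the H3K4me3 calls came from the start of TOMM40L. Of these 5 receptors, NR1H4, NR1I2 and NR1I3 thus had neither mark at a listed start.

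NR1D1 and NR1D2, the REV-ERB repressors of the circadian clock, had no H3K27me3, with H3K4me3 over 2.8 and 2.2 kb and over 3.2 and 2.8 kb. The ROR genes encode activators that bind the same sites. RORB, known from retina and brain, had H3K27me3 over 7 kb in the Vc- library and 4.4 kb in the Vc+ library, and H3K4me3 over 3.8 and 4.2 kb. RORA (chromosome 15, 60488284 to 61229302) had H3K27me3 in the Vc+ library alone, in an island of 3 kb (60591601 to 60594600) with a score of 11.3, among the highest 47.3% of its list. The nearest island of the other library was 368 kb from the gene. This island overlapped by 2 kb an H3K4me3 island of 2.8 kb inside the gene, which was 2.6 kb in the Vc- library. A second H3K4me3 island, of 2.8 and 3 kb, lay across the upstream end of RORA without H3K27me3.

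Among the NR2 orphan receptors, NR2E1 (chromosome 6, 108166022 to 108188809), a regulator of neural stem cells, had the longest H3K27me3 of the 39 genes. Its island was 32 kb wide in the Vc- library (108149801 to 108181800) and 35 kb in the Vc+ library (108148201 to 108183200). A further island of 4.2 kb was called at its far end in the Vc+ library, which brought the length in the window to 20.8 and 26.4 kb. H3K4me3 covered 5.2 and 4 kb, all of it under H3K27me3. Scores of these H3K4me3 islands were low, the best among the highest 72.3% of the Vc- list and 73.7% of the Vc+ list. NR2C1 and NR2C2, the broadly expressed testicular receptors, had H3K4me3 only, over 1.6 and 2 kb and over 3.4 and 5.6 kb. NR2F6 also had H3K4me3 only, over 6.52 and 8.52 kb, part of it at the start of OCEL1. NR2E3, a photoreceptor factor, had no H3K27me3, and its only H3K4me3 island, of 1.8 kb and a score of 9.11 in the Vc+ library, lay outside the gene, 2.15 kb from its start.

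NR5A1, which controls genes for steroid synthesis in adrenal and gonad, had H3K27me3 over 6.8 kb in the Vc- library and 5 kb in the Vc+ library. The main island lay inside the gene, 0.799 and 1.4 kb from the listed start, with H3K4me3 of 2.4 and 3.2 kb within it. NR5A2 (chromosome 1, 200027710 to 200177415), its relative in liver, gut and early embryo, had an island of 16.2 kb in the Vc- library (200028401 to 200044600) and 19.6 kb in the Vc+ library (200027601 to 200047200). H3K4me3 covered 6 and 9.8 kb of NR5A2, all of it under H3K27me3, and an H3K4me3 island of 3 kb was called in the Vc+ library alone. NR6A1, the germ cell nuclear factor, was called for H3K27me3 through 0.111 and 0.311 kb of an island at the OLFML2A start. Its own start had H3K4me3 only, and that mark covered 8.8 and 6.6 kb in 4 islands each. NR0B2, a corepressor that lacks the DNA-binding domain, had no island of either mark in its window, the nearest H3K4me3 being 7.43 and 7.23 kb away.

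**Figure D4:**
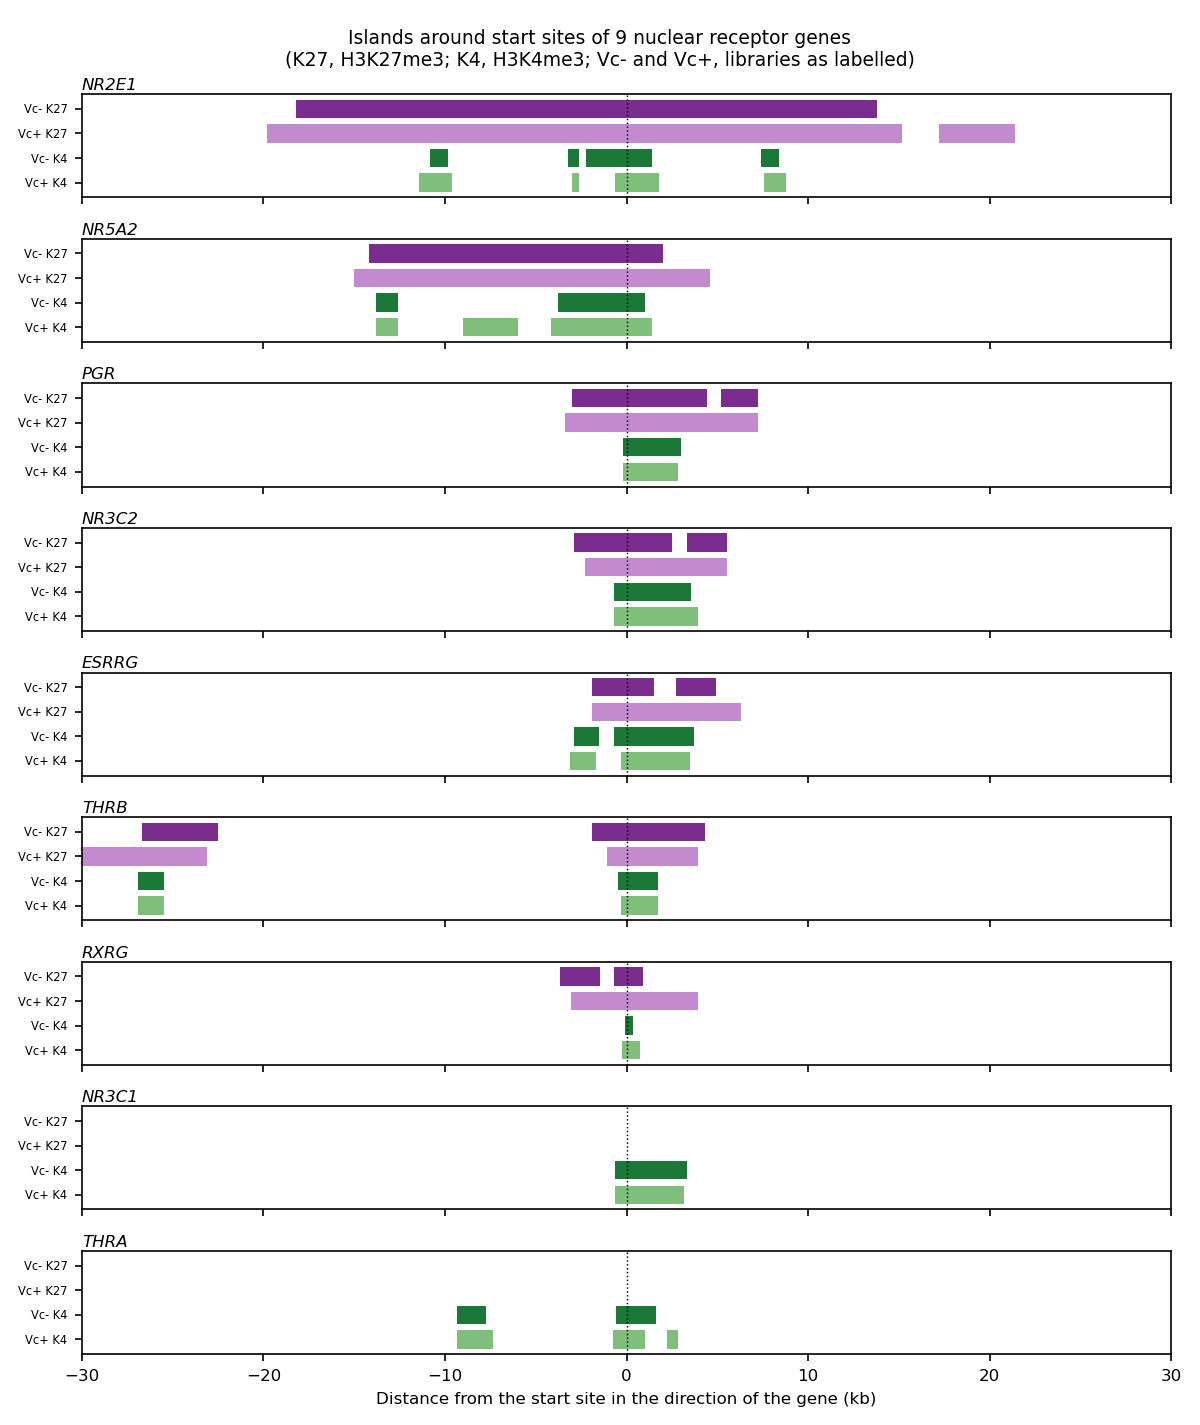
Islands of the 4 libraries around the first listed start under H3K4me3 in both libraries, for 9 nuclear receptor genes, with distance in kb in the direction of the gene. Bars are islands (purple, H3K27me3; green, H3K4me3; dark, Vc-; light, Vc+), cut at the edges of the plot. H3K27me3 of 32 and 35 kb lies across the start of NR2E1, and stretches called as 2 islands at PGR, NR3C2, ESRRG and RXRG in the Vc- library are each 1 island in the Vc+ library.

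The length under H3K27me3 was greater in the Vc+ library at 15 of the 19 genes called in both and greater in the Vc- library at 4, namely ESRRB, THRB, RORB and NR5A1. Over all genes with the mark in both, 64.1% had the greater length in Vc+, 28% in Vc- and 7.94% equal lengths, so the lean of the members lies beside a lean of the whole list. The median difference was 0.8 kb at the members and 0.6 kb over all genes. Differences ran from 2.6 kb less in the Vc+ library at RORB to 5.6 kb more at NR2E1. The lengths differed at least 2-fold at 3 members, against 14.9% of all such genes, and these were PPARA and the edge calls ESRRA and NR6A1. For H3K4me3, 21 of the 35 genes had the greater length in the Vc+ library, 11 in the Vc- library and 3 equal lengths, against 59.7%, 27% and 13.2% of all genes. The greatest excesses in the Vc+ library were 3.8 kb at NR5A2, 2.2 kb at NR2C2 and 2 kb at NR2F6.

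Fewer H3K27me3 islands were called in the Vc+ library at 7 of the 19 genes, all of them with 2 islands in the Vc- library and 1 in the other, against 9.81% of all genes with the mark in both. The number was the same at 11 members, against 78%. At NR3C2, PGR, ESRRG, RXRG and PPARG, a single island of the Vc+ library bridged the gap between the 2 islands of the other. The gap was 0.8 kb at 4 of these 5 genes, which is the smallest gap between any 2 islands in either H3K27me3 list, and 1.2 kb at ESRRG. At NR5A1 and NR5A2 a second, separate island of 2.2 and 2.6 kb was not called in the Vc+ library. Their scores in the Vc- list were 10 and 4.06, where the lowest of that list was 2.01. NR2E1 was the only member with more islands in the Vc+ library, against 12.2% of all genes with the mark in both.

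Partners of the receptors were read in the same way, on lists chosen with earlier results of these data known. Of 13 coregulators, among them the corepressor NCOR1 and the coactivators NCOA1, MED1 and EP300, all 13 had H3K4me3 in both conditions and 12 had no H3K27me3 in either, against 77.8% and 73.6% of all genes. The exception was PPARGC1A, a coactivator of PPARs and estrogen-related receptors, with 11.4 kb of H3K27me3 in the Vc- library and 6.8 kb in the other. Of 12 genes that make, break down or carry ligands, 5 had H3K27me3 in both, against 19.9% of all genes. These were CYP27B1 and CYP24A1 of vitamin D metabolism, DIO3, which inactivates thyroid hormone, HSD11B2, which inactivates cortisol, and CYP19A1, the aromatase. At CYP24A1 it covered 5 and 10 kb. Of the 17 targets on these chromosomes, 8 had H3K27me3 in both, against the same 19.9%, including ABCG1, PDK4, ZBTB16, KLF9 and the clock gene BMAL1. It covered 3.6 and 12.4 kb at ABCG1, a target of liver X receptors, and 2.2 and 8.2 kb at PDK4, a target of PPARs. The Vc- island at PDK4 had a score of 7.04. The length was less in the Vc+ library at PPARGC1A, DIO3 (10.4 and 9.05 kb) and CPT1A (6.6 and 6.4 kb). It was greater there at the other partners with the mark in both, as at 64.1% of all such genes. ABCA1, PER1 and ANGPTL4 had H3K4me3 and no H3K27me3. Over the 42 partners, 14 had H3K27me3 in both, 2 (HSD11B1 and FKBP5) in the Vc+ library alone and 0 in the Vc- library alone. The shares over all genes were 19.9%, 4.36% and 2.13%. The HSD11B1 call rested on 0.822 kb in the window. At FKBP5 the mark covered 1.8 kb, with a score of 7.64.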

How the data were processed

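The submitters' processing notes list SICER, Bowtie2 and deepTools beside the builds GRCh38 and hg38, without settings or versions. Each library had 1 list of islands deposited by the authors, with a score per island. The deposited score is the authors' own, ran from 2 to 309 and then jumped to 1000, and was taken from the values as −log10 of a false discovery rate. It served only for ranks and filters inside 1 list. Island widths were all multiples of 200 bp. Deposited starts count from 0 and coordinates are given counted from 1.

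Genes came from the RefSeq table of GRCh38 patch 14. A gene was called where an island overlapped its span and 5 kb on each side by at least 1 bp, and covered length is the island bases in that window. The tables give no exons, so exonic and intronic parts are not told apart. Strand and starts came from the RefSeq promoter table, whose reading direction was checked at 955 overlapping windows on opposite strands. With 1 library per mark and condition, only counts, lengths and the background over all genes are given, for islands without read counts, so no interval is given. The members, lists and motifs were chosen with earlier results of these data known. Named with values were members whose call differed, the 8 longest for each mark, those with a 2-fold difference in H3K27me3 and those without H3K4me3 in both, and all others are given by role, except that a few genes are counted in totals but their own values are not reported here. Calls were compared with those of bedtools 2.31.1, and in a test on simulated data all 200 planted islands were recovered in each library over 19126 genes. Python 3.11.15, numpy 2.4.6 and matplotlib 3.10.9 were used.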

Additional observations from a re-analysis of the deposited data

How the results depend on the processing

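Of 98 comparisons of 14 counts and median lengths with 7 alternatives, 80 stayed equal or within 1.5 times the value given and 18 did not. With 1 kb around either gene end in place of the span, H3K27me3 was called at 13 members (33.3%) in the Vc+ library, against 17.1% of all genes. In the Vc- library the shares were 35.9% and 15.7%. Both marks were called at 12 members in each pair. Median lengths were 2 kb for H3K27me3 in each library and 1.65 and 1.58 kb for H3K4me3. H3K27me3 then had 0 members in the Vc+ library alone and 1, NR5A1, in the Vc- library alone, and H3K4me3 had 1, NR1H4, in the Vc+ library alone. With 1 kb around a listed start, H3K27me3 again had 0 in the Vc+ library alone and 1, NR5A1, in the other, H3K4me3 had 0 in the Vc+ library alone, and median lengths were 2.16 and 2.51 kb for H3K27me3 and 2 kb for H3K4me3 in the Vc- library. Shorter windows limit these lengths by construction. The 3 H3K4me3 calls in the Vc+ library alone fell to 1, NR2E3, with 10 kb on each side and to 0 with a score of at least 10. The H3K27me3 calls in the Vc+ library alone were RORA and PPARD with that score, with an overlap of at least 1 kb and with equal numbers of islands. Without flank they were RORA and PPARA, and with 10 kb RORA and NR4A1. For both marks and for calls in 1 library alone, shares over all genes were taken only with the span and 5 kb. No paired analysis was possible because each mark and condition has 1 library and no test was made. Depth is unknown, and the repeatability of a call was not measured.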
